A study of Mus musculus with 9 samples.

Results

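The genes described here are 37 symbols of T cells and innate lymphoid cells, taken as a fixed list of names from the 42454 genes of the deposited expression table. The list was set by name and not by a cutoff on values, but with earlier results of these data known. RNA was sequenced from macrophages of low Ly6C and positive for MHC class II, sorted from the colon lamina propria of mice 6 weeks of age. There were 3 libraries from wild-type (WT) mice, 3 from p47phox-/- mice, which lack the cytosolic NADPH oxidase subunit encoded by Ncf1, and 3 from gp91phox-/- mice, which lack the membrane subunit encoded by Cybb. By its title, the series asks what reactive oxygen species do as intestinal macrophages develop. The labels name no other allele or treatment, and do not say whether the 3 libraries of a genotype came from separate animals. The p-values below thus set group differences against the spread between these libraries, which may not be that between animals.

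T cells recognise peptides with the T cell receptor, whose alpha and beta chains need the CD3 chains to reach the surface and to pass a signal to the kinases Lck and Zap70 and the adaptor Lat. Innate lymphoid cells lack that receptor but share many surface and cytokine receptors with T cells, among them the receptor for interleukin-7. In the gut both live in the lamina propria beside macrophages, some of which carry CD4 themselves in mice.

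Values are normalized counts, the reads on a gene divided by the library's size factor, so that 1 read was worth 0.603 to 0.953 normalized counts. Reads on the genes of the table, recovered from the values, summed to 31141107 to 52797368 per library. A gene was tested where at least 3 libraries had at least 10 normalized counts, which 14404 genes met, and was called where the adjusted p of limma, a linear model of log2(normalized count + 1) fitted over all these genes, was under 0.05. Fold changes below are on that log2 scale. For low genes the added 1 and libraries at 0 make them differ from the ratio of means in either direction. Of the 37 lymphoid genes 29 were tested, and 7 of these had 10 normalized counts in fewer than 6 libraries. The 8 others (Trbc1, Cd3d, Cd3g, Cd8b1, Cd27, Gata3, Gzma and Nkg7) reached at most 29.9 normalized counts, or 34 reads, in any library. The macrophage genes Csf1r (82181 to 128474), Cd68 (15938 to 25809) and C1qa (66803 to 128599) were high in all 9 libraries. They belong to a list of 14 macrophage markers, some of which differed by genotype. Against WT, 1 was called in p47phox-/- (Cd163, higher) and 1 in gp91phox-/- (Fcgr1, higher). Between the knockouts Cx3cr1, Itgam and Fcgr1 were higher in gp91phox-/-, Cd68 was lower, and 10 were not called. Cx3cr1 was at 4060 to 5542 in WT, 598 to 5056 in p47phox-/- and 14745 to 24878 in gp91phox-/-. Over all genes 1.12% and 7.05% were called against WT and 9.93% between the knockouts. Ncf1 was at 2718 to 3733 in p47phox-/- and at 8990 to 13618 in the other libraries. All 1139 genes of chromosome X in the table were at 0 in every library, Cybb included, so the gp91phox-/- label could not be checked on its gene, and the X-linked lymphoid genes Foxp3, Il2rg and Cd40lg could not be read. In the p47phox-/- group, replicates 2 and 3 had reads on 14323 and 14268 genes against 15825 to 18760 in the other 7 libraries, and 11 and 10 of the 37 lymphoid genes had no read in them, against 0 to 7 elsewhere.

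Lck, Ctla4 and Cd3e are used to show the starts of such genes, since Lck and Ctla4 carried 2 of the differences below and Cd3e was at most 22 reads throughout. RefSeq promoter sequences of build GRCm38.p6, from 250 bases before to 50 after a start, were matched for 23 of the 37 genes (31 entries). Each was searched on both strands for TGTGGT (bound by RUNX factors), GAGGAA (the core of the PU-box) and AGATAA (bound by GATA factors), and matches are in capitals. Positions are those of a match's left end, counted from 0 at the annotated start of each entry. For Ctla4 and the downstream start of Lck, that base lies inside the gene span given below.
Lck, upstream start, chr4:129573592-129573891, minus strand: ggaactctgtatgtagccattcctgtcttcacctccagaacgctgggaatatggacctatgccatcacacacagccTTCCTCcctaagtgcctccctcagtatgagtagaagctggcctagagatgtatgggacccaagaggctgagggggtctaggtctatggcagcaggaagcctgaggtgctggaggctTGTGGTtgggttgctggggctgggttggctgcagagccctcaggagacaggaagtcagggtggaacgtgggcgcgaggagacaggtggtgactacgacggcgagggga
Lck, downstream start, chr4:129558323-129558622, minus strand: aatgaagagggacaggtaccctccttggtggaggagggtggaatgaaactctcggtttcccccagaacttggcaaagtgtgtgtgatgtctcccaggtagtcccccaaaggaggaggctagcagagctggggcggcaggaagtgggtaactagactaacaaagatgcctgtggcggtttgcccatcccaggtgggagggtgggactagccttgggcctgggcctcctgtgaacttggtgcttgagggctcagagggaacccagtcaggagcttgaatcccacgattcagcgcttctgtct
Ctla4, chr1:60908775-60909074, plus strand: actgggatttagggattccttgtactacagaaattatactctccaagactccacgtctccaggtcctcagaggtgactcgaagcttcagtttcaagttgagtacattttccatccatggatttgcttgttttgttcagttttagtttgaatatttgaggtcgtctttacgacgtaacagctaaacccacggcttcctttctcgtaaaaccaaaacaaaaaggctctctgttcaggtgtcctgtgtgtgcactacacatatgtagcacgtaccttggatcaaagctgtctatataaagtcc
Cd3e, chr9:45009562-45009861, minus strand: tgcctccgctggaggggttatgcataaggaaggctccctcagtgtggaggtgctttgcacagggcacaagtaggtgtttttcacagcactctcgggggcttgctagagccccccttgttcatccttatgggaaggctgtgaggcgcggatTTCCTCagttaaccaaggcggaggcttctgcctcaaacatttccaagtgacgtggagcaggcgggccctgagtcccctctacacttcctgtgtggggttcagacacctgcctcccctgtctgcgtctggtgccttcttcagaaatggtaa
The upstream start of Lck held TGTGGT at position -58 and GAGGAA at -174 on the reverse strand, where it reads TTCCTC. Its downstream start and that of Ctla4 held none of the 3 motifs, and that of Cd3e held GAGGAA at -100 on the reverse strand. Among all 32851 promoter entries 16.8% held TGTGGT, 28.3% GAGGAA and 11.2% AGATAA, against 10, 13 and 3 of the 31 lymphoid entries. Counts are per gene, so which start of Lck was used cannot be told apart here.

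Levels spanned a wide range. Per kilobase of exon (GENCODE M21), the WT means ran from 2434 normalized counts for Cd4 through 381 for Il7r, 306 for Cd2, 106 for Ctla4 and 76.9 for Cd28 down to 0.809 for Cd3d. Only Cd4, Il7r, Cd28 and Klrk1 stayed above 100 normalized counts in all 9 libraries, 13 of the 37 genes were at 10 or more in all 9, and 18 had no read in at least 1 library. Leaving out Cd4, the genes summed to 4021 to 4842 normalized counts in WT libraries, 4926 to 5277 in p47phox-/- and 2069 to 3539 in gp91phox-/-.

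**Figure D1:**
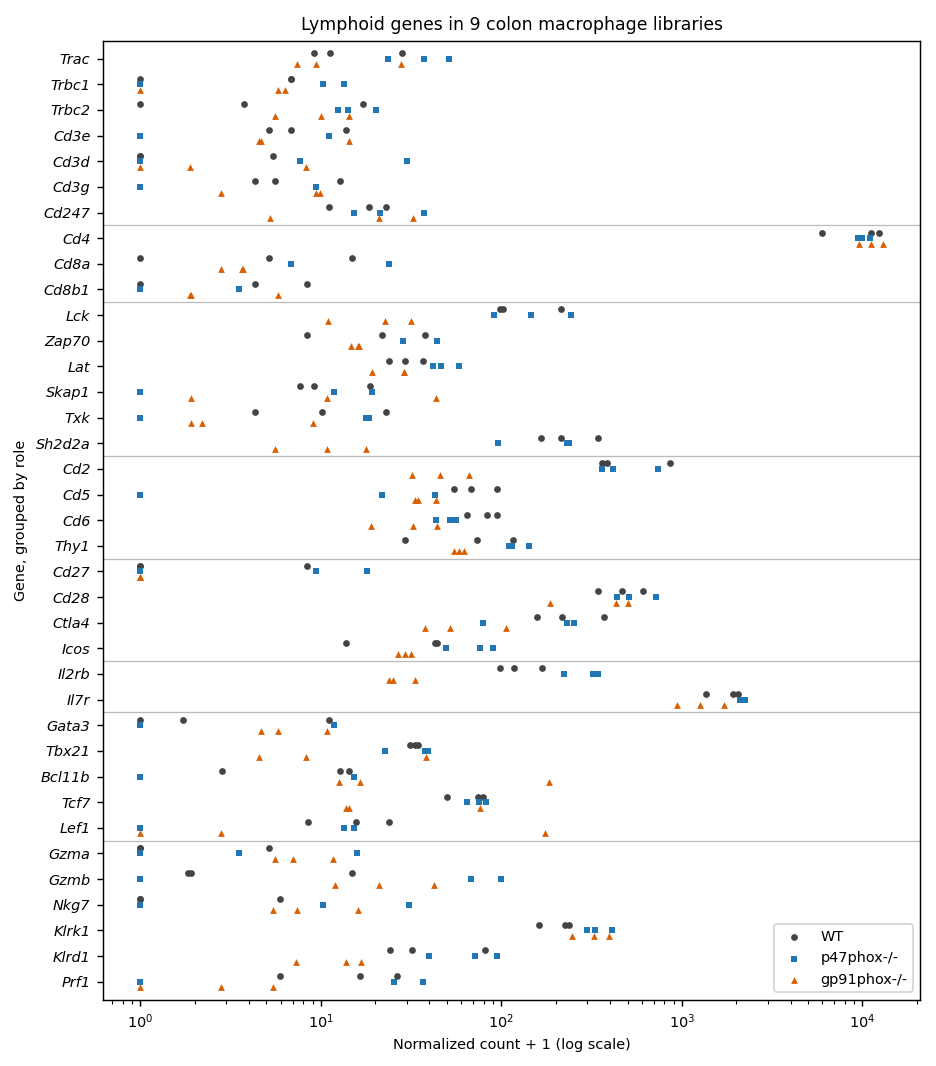
Normalized count + 1 on a log axis for each of the 37 lymphoid genes, grouped by role, with 1 point per library coloured by genotype. Cd4 and Il7r sit far to the right of the receptor and CD3 chains at the top, and the gp91phox-/- points of Lck, Sh2d2a, Cd2 and Il2rb sit left of all the others.

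In gp91phox-/- libraries 5 of the 29 tested lymphoid genes were lower than in WT and 0 were higher. They were the adaptor gene Sh2d2a, the adhesion receptor gene Cd2, the kinase gene Lck, the cytokine receptor gene Il2rb and the checkpoint gene Ctla4. Over all genes, 7.05% were called in this comparison, 4.53% lower and 2.53% higher, and the 5 made up 17.2% of the lymphoid genes tested. The median log2 fold change of the 29 was -0.42, against 0.01 over all tested genes. In p47phox-/- libraries 0 of 29 were called against WT by limma, where 1.12% of all genes were, 0.625% higher and 0.5% lower. Of the 29, 4 had an unadjusted p under 0.05, edgeR called 0 and DESeq2 called 1, Il2rb.

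The chains of the T cell receptor and CD3 were low in every library of every genotype. The 7 genes (Trac, Trbc1, Trbc2, Cd3e, Cd3d, Cd3g and Cd247) summed to 38.4 to 76.4 normalized counts in WT, 90.6 to 112.5 in p47phox-/- and 36.4 to 90.3 in gp91phox-/-, and no chain had more than 57 reads in a library. Trac, the constant region of the alpha chain, was at 27.3, 10.3 and 8.23 in WT, 22.7, 50.1 and 36.2 in p47phox-/- and 6.37, 8.45 and 26.8 in gp91phox-/-. Its levels overlapped between the groups. Cd3e, a signalling chain of the complex, was at 4.14, 5.87 and 12.8 in WT, 10.1, 0 and 0 in p47phox-/- and 3.64, 13.3 and 3.58 in gp91phox-/-. The highest of these is 22 reads. Cd247, the zeta chain, which natural killer cells also use, ranged from 4.22 to 36.2 over the 9 libraries. None of the 4 chains tested was called in any comparison. The 2 beta chain constant genes are near-identical copies, so reads may have been split between them. Of 272 variable, diversity and joining segments of the receptor in the table, 30 had a read, 180 reads in all over 9 libraries.

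The coreceptors parted from one another. Cd4, the coreceptor for MHC class II, was at 12323, 5950 and 11166 in WT, 9503, 10973 and 9927 in p47phox-/- and 13043, 11110 and 9516 in gp91phox-/-. The genotypes overlapped, with WT replicate 2 lowest of all, and Cd4 was not called in any comparison (limma adjusted p = 0.593 for gp91phox-/- against WT). Cd8a, which binds MHC class I, was at 0 to 13.95 in WT, 5.88 to 22.9 in p47phox-/- and 1.81 to 2.73 in gp91phox-/-, with no call. Cd8b1 did not exceed 7.34 in any library.

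Among the 6 genes of signalling close to the receptor, Lck and Sh2d2a fell in gp91phox-/- and the other 4 were not called. Lck (chr4:129548344-129573641, GRCm38), the kinase that starts T cell receptor signalling, was at 101, 213 and 96.9 in WT, 90.6, 241 and 146 in p47phox-/- and 10.01, 21.7 and 30.4 in gp91phox-/-. All 3 gp91phox-/- libraries lay below all 6 others, while WT and p47phox-/- overlapped. The log2 fold change of gp91phox-/- against WT was -2.70 ± 0.51 (SE, limma adjusted p = 0.00732).

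Sh2d2a (chr3:87846755-87855722) encodes an adaptor that binds Lck in activated T cells. It was at 164, 342 and 214 in WT, 231, 236 and 94.3 in p47phox-/- and 4.55, 16.9 and 9.84 in gp91phox-/-. The gp91phox-/- libraries again lay below all others, at -4.49 ± 0.52 (SE) against WT (limma adjusted p = 0.000231), the greatest fall among the lymphoid genes. The kinase gene Zap70, which acts after Lck, was at 7.34 to 36.6 in WT and 13.6 to 15.2 in gp91phox-/-. Lat, the membrane adaptor phosphorylated by Zap70, was at 22.8 to 35.7 in WT, 41.0 to 57.1 in p47phox-/- and 18.2 to 27.8 in gp91phox-/-. Neither Zap70 nor Lat was called in any comparison. Skap1 (0 to 42.2 over 9 libraries) and Txk (0 to 22.0) were low, and not called.

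**Figure D2:**
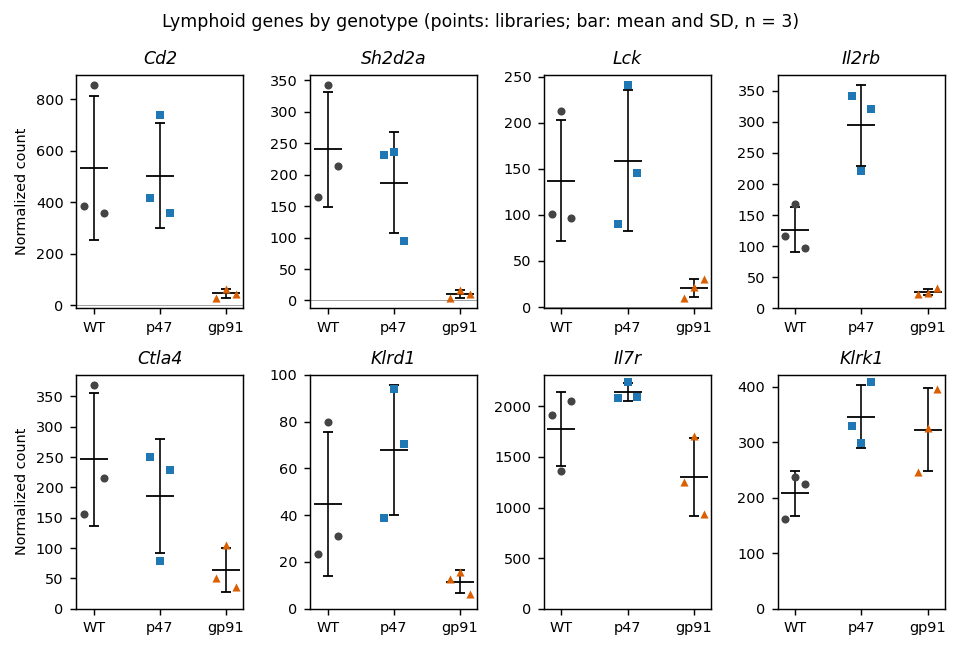
Normalized counts of 8 lymphoid genes by genotype, with points for libraries and bars for the mean and SD of 3 libraries, on linear axes that differ between panels. In gp91phox-/- (gp91) Cd2, Sh2d2a, Lck and Il2rb lie below every WT and p47phox-/- (p47) library, whereas Klrk1 lies above every WT library.

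The 4 surface proteins of adhesion and tuning held 1 call. Cd2 (chr3:101275899-101287939), an adhesion receptor of T and natural killer cells that mouse B cells also carry, was at 385, 855 and 359 in WT, 415, 739 and 359 in p47phox-/- and 30.9, 65.2 and 44.7 in gp91phox-/-. WT and p47phox-/- covered the same range, and gp91phox-/- lay below both, at -3.42 ± 0.39 (SE) against WT (limma adjusted p = 0.000231). Cd6, a scavenger receptor family protein of T cells, was at 63.8 to 94.0 in WT, 42.2 to 55.3 in p47phox-/- and 17.9 to 42.8 in gp91phox-/-. Both knockouts lay below WT without overlap, and neither difference was called (limma adjusted p = 0.488 for p47phox-/- and 0.0763 for gp91phox-/-). Its relative Cd5 was at 53.6 to 94.2 in WT, 0 to 42.0 in p47phox-/- and 32.2 to 42.2 in gp91phox-/-, without a call. Thy1, a surface glycoprotein of T cells and innate lymphoid cells, was at 28.3 to 115 in WT, 110 to 142 in p47phox-/- and 53.7 to 60.8 in gp91phox-/-.

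Of the co-stimulation and checkpoint genes 3 of 4 were tested, and 1 was called, lower in gp91phox-/- than in WT; the log2 fold changes of all 3 were below 0 in that comparison. Ctla4 (chr1:60887000-60915832), the inhibitory receptor that competes with CD28, was at 156, 369 and 216 in WT, 250, 78.2 and 229 in p47phox-/- and 51.0, 106 and 36.7 in gp91phox-/-. The gp91phox-/- libraries lay below WT but overlapped p47phox-/- through its replicate 2. Against WT the log2 fold change was -1.97 ± 0.51 (SE, limma adjusted p = 0.0378), and the call was lost without WT replicates 1, 2 or 3 or gp91phox-/- replicates 1 or 3 (adjusted p = 0.0538 to 0.147). Cd28, which gives T cells their second signal, was at 464, 607 and 340 in WT, 716, 439 and 511 in p47phox-/- and 502, 429 and 185 in gp91phox-/-, all overlapping and not called. Icos, a relative of CD28, was at 12.8 to 43.1 in WT, 48.6 to 89.0 in p47phox-/- and 25.9 to 30.8 in gp91phox-/-. Its p47phox-/- libraries lay above all others, but its limma adjusted p against WT was 0.308.

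The cytokine receptor gene Il2rb (chr15:78479256-78495271) was the one whose 3 genotypes did not overlap at all. It encodes the beta chain through which interleukin-2 and interleukin-15 signal, in natural killer cells and T cells among others. It was at 116, 167 and 96.9 in WT, 342, 221 and 321 in p47phox-/- and 22.7, 24.1 and 32.2 in gp91phox-/-. Against WT, gp91phox-/- stood at -2.20 ± 0.34 (SE, limma adjusted p = 0.00186). For p47phox-/- the log2 fold change was 1.22 ± 0.34 (SE), with an adjusted p of 0.109 in limma and 0.0128 in DESeq2. Il7r, the interleukin-7 receptor chain on which T cells and innate lymphoid cells depend, was at 1919, 1358 and 2048 in WT, 2086, 2245 and 2091 in p47phox-/- and 1253, 1710 and 937 in gp91phox-/-. WT overlapped gp91phox-/-, and neither knockout was called against WT.

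The 5 transcription factors were low, apart from a single gp91phox-/- library for Bcl11b and Lef1, and none was called with all libraries. Bcl11b, needed for T lineage commitment, was at 182 in gp91phox-/- replicate 2 and at 0 to 15.5 in the other 8 libraries. Lef1, a partner of T cell factor 1, was at 173 in that library and at 0 to 22.8 elsewhere. In gp91phox-/- replicate 2, 34 genes at 50 normalized counts or more were at least 5 times the highest other library plus 1, against 0 to 19 genes in each of the others, and Bcl11b and Lef1 were among them. Tcf7, which encodes T cell factor 1, was at 48.9, 77.8 and 73.2 in WT, 81.4, 63.3 and 74.3 in p47phox-/- and 12.7, 75.4 and 13.4 in gp91phox-/-. It was not called with all libraries (limma adjusted p = 0.198), and without gp91phox-/- replicate 2 it was lower than in WT, at -2.24 (adjusted p = 0.0326). Tbx21, the factor of type 1 helper and natural killer cells, was at 30.2 to 33.8 in WT and at 7.28, 37.4 and 3.58 in gp91phox-/-, again with replicate 2 highest. Gata3, the factor of type 2 cells, stayed at 10.9 or below throughout.

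Cytotoxic and natural killer genes had no call against WT in either knockout. Klrk1, which encodes the activating receptor NKG2D, was at 162, 237 and 224 in WT, 330, 298 and 409 in p47phox-/- and 246, 325 and 395 in gp91phox-/-. Every knockout library lay above every WT library, but the limma adjusted p was 0.181 for p47phox-/- and 0.162 for gp91phox-/-. Klrd1 (CD94), a partner of the NKG2 receptors, was at 23.2, 80.0 and 31.1 in WT, 38.6, 94.1 and 70.5 in p47phox-/- and 12.7, 15.7 and 6.26 in gp91phox-/-. The gp91phox-/- libraries lay below all others, with a limma adjusted p of 0.12 against WT. Prf1, which encodes the pore-forming protein perforin, was at 4.97 to 25.6 in WT and 0 to 4.47 in gp91phox-/-. Gzmb, a granule protease gene, was at 0.829, 13.95 and 0.914 in WT, 67.1, 0 and 99.1 in p47phox-/- and 10.9, 19.9 and 41.1 in gp91phox-/-. Its p47phox-/- libraries ran from none to the highest value of the 9. Nkg7 and Gzma were at most 29.9 and 14.9.

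In all, 9 of the 29 tested genes had every gp91phox-/- library below every WT library (31.0%, against 18.2% of all tested genes), and Klrk1 alone had every one above (15.1% of all genes). Between p47phox-/- and WT, Lat, Icos, Il2rb, Il7r and Klrk1 lay above without overlap (17.2%, against 9.25% of all genes), and Cd5 and Cd6 below (6.9%, against 8.49%). The comparisons share the WT libraries.

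**Figure D3:**
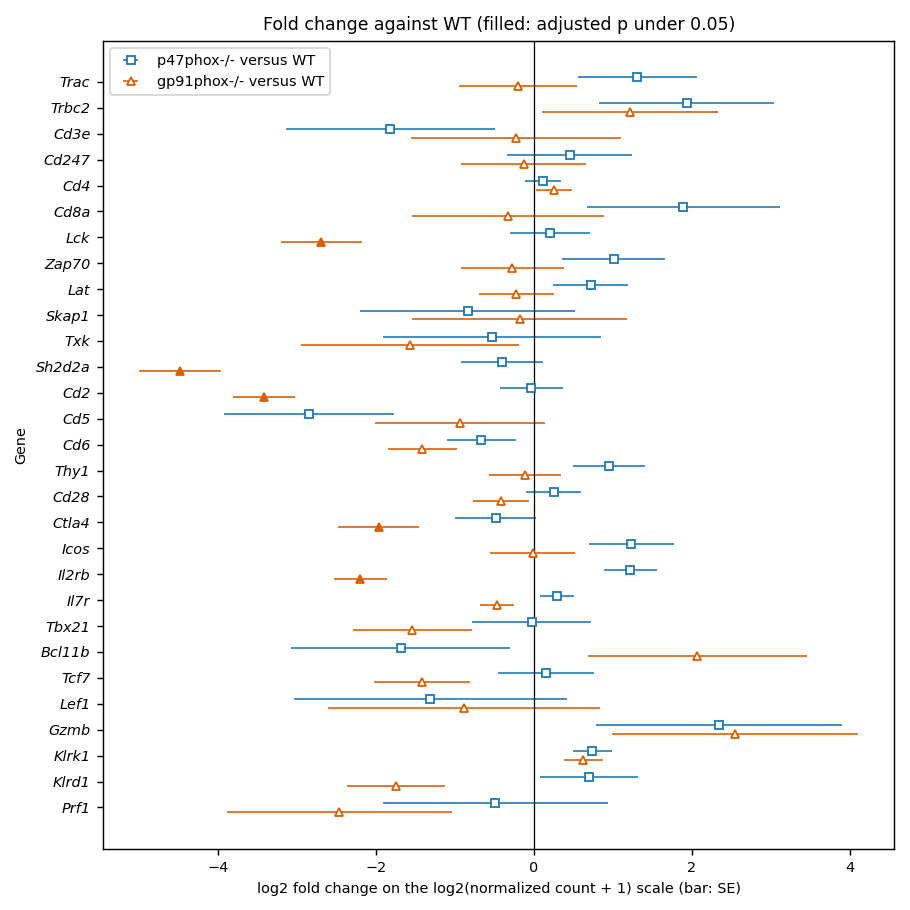
Log2 fold change against WT, on the log2(normalized count + 1) scale with bars for the SE, of the 29 tested lymphoid genes in p47phox-/- (squares) and gp91phox-/- (triangles), filled where the adjusted p was under 0.05. The filled symbols are the 5 gp91phox-/- triangles of Lck, Sh2d2a, Cd2, Ctla4 and Il2rb, all left of 0.

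Set directly against p47phox-/-, 6 lymphoid genes were lower in gp91phox-/- and 0 were higher, where 9.93% of all genes were called, 5.96% lower and 3.97% higher. Under TMM scaling the split over all genes turned from 572 higher and 858 lower to 869 and 702, and edgeR gave 747 and 650. Sh2d2a stood at -4.08 ± 0.52 (SE, limma adjusted p = 0.000519), Il2rb at -3.42 ± 0.34 (6.52e-05), Cd2 at -3.39 ± 0.39 (0.000281) and Lck at -2.90 ± 0.51 (0.00399). Klrd1 stood at -2.45 ± 0.62 (limma adjusted p = 0.0282) and Il7r at -0.76 ± 0.21 (0.0407). The call for Il7r was lost under 14 of 20 alternatives, TMM scaling among them (-0.67, adjusted p = 0.0634, where the median of all genes was 0.11), and without any 1 library other than WT replicate 2 or gp91phox-/- replicate 2. That for Klrd1 was lost without p47phox-/- replicates 2 or 3 or any 1 gp91phox-/- library (adjusted p = 0.0547 to 0.101). Without both p47phox-/- replicates 2 and 3, the libraries with fewest genes, Sh2d2a (-4.50), Cd2 (-3.18) and Il2rb (-3.66) were still called, and Lck was at -2.21 (adjusted p = 0.125). That fit holds 1 p47phox-/- library, which is assumed to vary like those of the other groups. Leaving out 1 library also added a call for Tcf7 (lower, without gp91phox-/- replicate 2), Ctla4 (lower, without p47phox-/- replicate 2) and Bcl11b (higher, without p47phox-/- replicate 1). Against p47phox-/-, 11 of the 29 genes lay lower in gp91phox-/- without overlap (37.9%, against 17.3% of all genes), and 0 lay higher (13.6%).

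Other genes of the same pathways were read from lists of names. Of 26 partners of T cell receptor signalling 21 were tested, and against WT 1 was higher in gp91phox-/- and 5 were lower. These were 28.6% of those tested, where 7.05% of all genes were called, 4.53% lower and 2.53% higher. Between the knockouts, here and for the lists below, 9.93% of all genes were called, 5.96% lower and 3.97% higher in gp91phox-/-. Btla, an inhibitory receptor of B and T cells, was at 362, 1200 and 565 in WT, 785, 974 and 663 in p47phox-/- and 10.01, 13.3 and 11.6 in gp91phox-/-, far apart from both other groups (log2 fold change -5.64 ± 0.38, SE here and below, limma adjusted p = 3.28e-06). Tigit, an inhibitory receptor of T and natural killer cells, was at 61.3 to 110 in WT and 12.5 to 21.8 in gp91phox-/- (-2.16 ± 0.46, limma adjusted p = 0.0129). That call was lost without WT replicates 2 or 3 or gp91phox-/- replicate 3 (adjusted p = 0.0501 to 0.0646). Grap2, an adaptor that binds the Lcp2 protein, also fell (-1.26 ± 0.23, limma adjusted p = 0.00621). Sit1, an adaptor of lymphocytes, was at 29.8, 18.4 and 21.9 in WT and at 0, 0 and 0.895 in gp91phox-/-; the size of its fold depends on the pseudocount, and its call was lost without WT replicates 1 or 3. Lcp2 itself, an adaptor that macrophages also use, rose, from 4865 to 5622 in WT to 6668 to 9750 in gp91phox-/-. Between the knockouts 7 were lower and 2 higher in gp91phox-/-, and Tespa1, a T cell signalling gene, was among the lower (-2.55 ± 0.73, limma adjusted p = 0.0448), a call lost under 14 of 20 alternatives. The T cell genes Themis, Trat1, Ubash3a, Cd96 and Sla2 were too low to test. Against WT, p47phox-/- had 0 of the 21 called by limma, 5 with an unadjusted p under 0.05.

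Of 29 effector and subset genes of helper T cells and innate lymphoid cells 19 were tested, and against WT 3 were lower and 2 higher in gp91phox-/-. These were 26.3% of those tested, against 7.05% of all genes. Ccr6, a chemokine receptor of gut lymphocytes that B cells also carry, was at 313, 894 and 682 in WT, 609, 770 and 276 in p47phox-/- and 4.55, 0.603 and 4.47 in gp91phox-/- (-7.30 ± 0.57 against WT, limma adjusted p = 9.41e-06). Itgae, the integrin chain CD103 of gut T cells and dendritic cells, was at 98.6, 179 and 61.3 in WT, 191, 113 and 112 in p47phox-/- and 18.2, 10.3 and 16.1 in gp91phox-/- (-2.75 ± 0.47 against WT, limma adjusted p = 0.00373). Both were lower in every gp91phox-/- library than in the other 6. Il2ra, the alpha chain of the interleukin-2 receptor, was at 50.3 to 75.6 in WT and 2.73 to 20.5 in gp91phox-/- (-2.57 ± 0.63, limma adjusted p = 0.0289), a call lost without any 1 WT library or gp91phox-/- replicate 1 (adjusted p = 0.0601 to 0.104). Areg, the growth factor amphiregulin, rose by 1.20 ± 0.28 (limma adjusted p = 0.0242), and Id2, a factor of innate lymphoid cells that myeloid cells also use, by 0.86 ± 0.16 (0.00725). The call for Areg was lost without any 1 WT library or gp91phox-/- replicates 2 or 3. Il17a was at 0 in all libraries, and Ifng at most at 10.9.

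Il22, the cytokine of group 3 innate lymphoid cells, was at 19.9, 52.9 and 39.3 in WT, 156, 151 and 54.3 in p47phox-/- and 0.91, 3.02 and 15.2 in gp91phox-/-. The p47phox-/- libraries were the highest and gp91phox-/- the lowest, without overlap, and the 2 knockouts differed by -4.46 ± 0.80 (limma adjusted p = 0.00445). Neither was called against WT by limma (adjusted p = 0.365 and 0.0539). Il18r1, a receptor chain for interleukin-18, was at 10.3 to 20.7 in WT, 43.6 to 79.1 in p47phox-/- and 1.81 to 3.58 in gp91phox-/-, in the same order. Its gap between the knockouts was -4.15 ± 0.71 (limma adjusted p = 0.00323), and 0.0709 without p47phox-/- replicates 2 and 3, where the remaining library is assumed to vary like the other groups. Between the knockouts 5 of the 19 effector genes were lower in gp91phox-/- and 1 was higher, Areg, and 0 were called in p47phox-/- against WT by limma, 4 with an unadjusted p under 0.05.

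**Figure D4:**
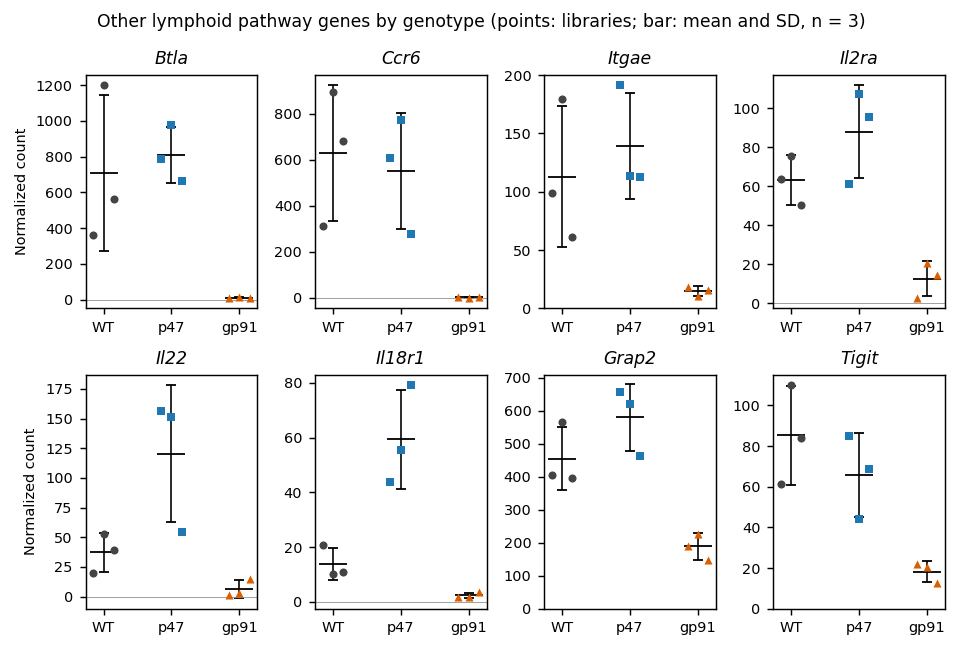
Normalized counts of 8 other lymphoid pathway genes by genotype, with points for libraries and bars for the mean and SD of 3 libraries, on linear axes that differ between panels. Btla, Ccr6, Itgae, Il2ra, Grap2 and Tigit are low in gp91phox-/- (gp91) beside both other groups, and Il22 and Il18r1 are highest in p47phox-/- (p47).

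Genes of lymphocyte traffic were all tested, and 4 of 8 fell in gp91phox-/- against WT (50%, against 4.53% of all genes). Ccr7, the receptor that guides lymphocytes and dendritic cells to lymph nodes, was at 2799 to 5160 in WT and 944 to 1579 in gp91phox-/- (-1.47 ± 0.25, limma adjusted p = 0.00374). S1pr1, which lets lymphocytes leave tissue, fell by 1.11 ± 0.20 (limma adjusted p = 0.00597). The fall of Itgb7, a gut-homing integrin chain (-0.72 ± 0.20, limma adjusted p = 0.0461), was lost under 13 of 20 alternatives, among them leaving out any 1 WT library. Between the knockouts 3 were lower and 1 higher in gp91phox-/-, the integrin gene Itgal, at 0.62 ± 0.13 (limma adjusted p = 0.00962). In p47phox-/- 0 of the 8 were called against WT by limma, 2 with an unadjusted p under 0.05. A further list of natural killer and gamma-delta T cell genes had 5 of 18 tested. Ncr1, which marks natural killer cells, was at 0 in 7 libraries and at most at 4.55, and Ccl5 was the one gene of the list called in any comparison, lower in p47phox-/- (678 to 755) than in WT (2650 to 3485), at -2.08 ± 0.30 (limma adjusted p = 0.00783). That call was lost without the mean-variance trend (adjusted p = 0.0742) and without p47phox-/- replicates 2 and 3 (0.172).

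Markers of some other cells in the sorted samples moved with genotype beside the lymphoid genes. Over all genes 4.53% were called lower and 2.53% higher in gp91phox-/- than in WT. For p47phox-/- against WT the shares were 0.5% lower and 0.625% higher. Of 12 B cell markers 11 were lower in gp91phox-/- than in WT, and their sum was 15711 to 26532 in WT, 14086 to 22383 in p47phox-/- and 3315 to 3939 in gp91phox-/-. In 9 of the 12, among them Cd79a, Fcmr, Ms4a1 and Pax5, no gp91phox-/- library exceeded 20.6 and no WT or p47phox-/- library was under 235. Cd79a, a chain of the B cell receptor, was at 2892, 5299 and 2729 in WT, 2412, 4439 and 2220 in p47phox-/- and 5.46, 10.3 and 15.2 in gp91phox-/-. WT replicate 2 was the highest WT library for all 9 of these B cell markers and for all 5 lymphoid genes called. That was not particular to the called genes. Among lymphoid genes not called against WT, it was also the highest for Cd6, Cd28, Tcf7, Klrk1, Klrd1 and others. For Cd4, Il7r, Cd5, Thy1 and others another WT library was highest. In p47phox-/- the B cell sum was also highest in replicate 2 (22383, against 17202 and 14086), where Cd2, Lck and Sh2d2a were highest of the group but Il2rb and Ctla4 lowest. Of these 5, Cd2 is known from mouse B cells too.

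Of 8 plasma cell markers 3 were lower in gp91phox-/-, and the list summed to 22680 to 39128 in WT, 20709 to 30024 in p47phox-/- and 16061 to 19053 in gp91phox-/-. Of 12 markers of conventional dendritic cells 2 were lower, Flt3 (199 to 621 in WT, 20.9 to 42.9 in gp91phox-/-) and Cd209a (311 to 494 and 29.6 to 66.4), while the list, led by genes that macrophages share, summed to 45182 to 46746 in WT and 48772 to 54091 in gp91phox-/-. Of 8 tested markers of plasmacytoid dendritic cells 1 was lower, Spib (1038 to 1955 and 16.3 to 23.7), which B cells also use, with sums of 20688 to 25959 and 21462 to 22509. In p47phox-/- against WT 1 of these 8 was higher, Siglech (712 to 1124, against 239 to 334 in WT), and 1 lower, Runx2 (342 to 475, against 651 to 780). Of 12 fibroblast and smooth muscle markers 4 were higher in p47phox-/- than in WT and 2 in gp91phox-/-, with sums of 12529 to 19794 and 10833 to 12460 against 7041 to 9486. Mast cell and basophil markers summed to 0 in WT and to at most 124.8 in a p47phox-/- library. Of 9 tested colon epithelial markers and 2 tested neutrophil markers, 0 were called in either knockout against WT. The part of these cells in the differences of the lymphoid genes was not tested, and in bulk RNA fewer cells of a type and less RNA per cell cannot be told apart.

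**Figure D5:**
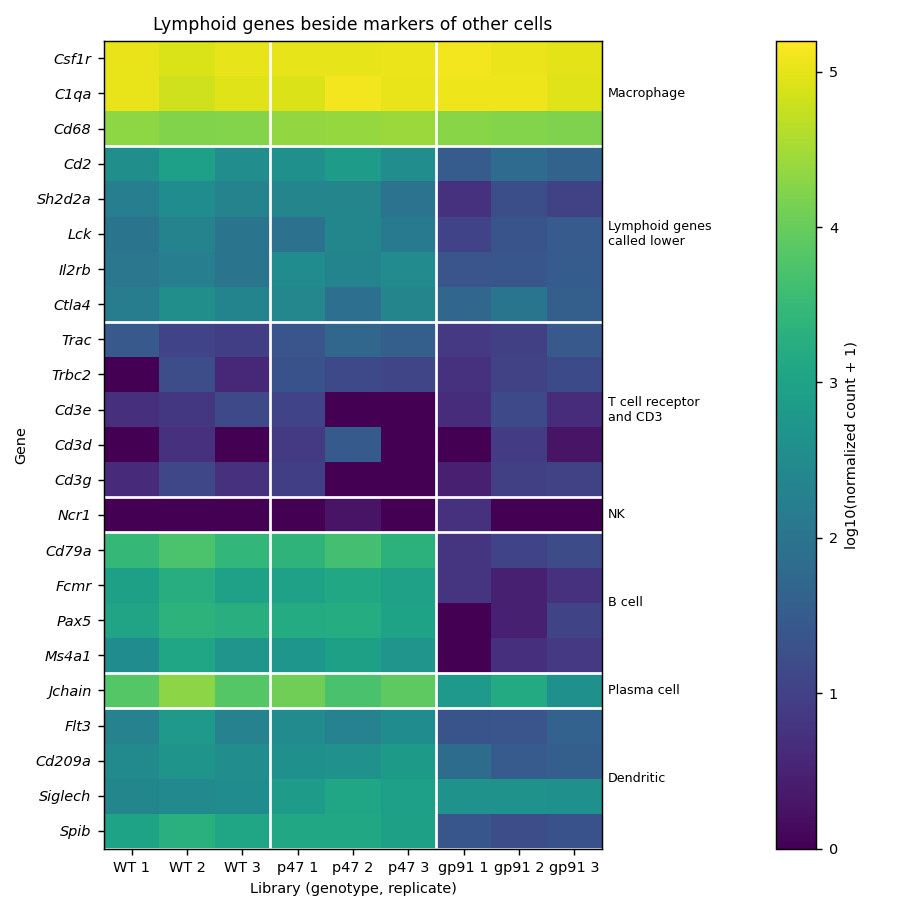
Colour shows log10(normalized count + 1) in each of 9 libraries (columns, by genotype and replicate) for macrophage markers, the 5 called lymphoid genes, receptor and CD3 chains, and markers of natural killer, B, plasma and dendritic cells (rows). The gp91phox-/- columns are darker than the WT columns for the 5 lymphoid genes, least so for Ctla4. They are dark for Cd79a, Fcmr, Pax5 and Ms4a1, and the receptor and CD3 rows are dark in all 9 columns.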

How the data were processed

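Following the labels' protocols, RNA extracted with an RNeasy kit was sequenced paired-end; bcl2fastq 2.19, Cutadapt, STAR 2.5.2b (mm10) and featureCounts took base calls to counts per gene, and the submitters' processing notes add DESeq2. The authors deposited a signal, the normalized count, equal to the reads on a gene over a size factor for the library (1.05 to 1.66, read from the values). Whole reads could be recovered from 100% of values (tolerance 0.01). Annotation and strand setting are not given in the sources used here, and 9 of the 37 genes overlap a gene on the opposite strand.

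Values were analysed as log2(normalized count + 1) in limma 3.58.1 (R 4.3.3) with all 9 libraries in 1 fit, a mean-variance trend, and Benjamini-Hochberg adjustment over the 14404 genes that reached 10 normalized counts in 3 libraries or more. Calls were made at an adjusted p of 0.05. Errors are SE of the log2 fold change or SD over 3 libraries. The alternatives tried were pseudocounts of 0.5 and 5, no filter, a filter of 50, TMM scaling, edgeR 4.0.16, DESeq2 1.42.0, no trend, a fit of 2 groups at a time, a block for replicate number, leaving out single libraries, and leaving out p47phox-/- replicates 2 and 3 together. The fit was tested on simulated data with changes planted only in genes with a mean above 50 normalized counts, so that test does not cover changes in lower genes. The genes and lists were chosen with earlier results of these data known. All 37 genes are described. From the pathway lists, called genes were named up to 5 per list and comparison by size of fold change; Lcp2, Areg between the knockouts, untested genes, and the marker genes shown were chosen after their values were seen. Coordinates and exon lengths are from GENCODE M21 (GRCm38). Some results of the pathway and marker lists are not reported here, but list counts and sums include them.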

Additional observations from a re-analysis of the deposited data

Results flagged for a closer look

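For 6 of the lymphoid genes the effect of one knockout differed from that of the other: gp91phox-/- against p47phox-/-, which is the test of the difference between their effects relative to the WT libraries they share, gave an adjusted p under 0.05 in limma. Their log2 fold changes were -4.08 for Sh2d2a, -3.42 for Il2rb, -3.39 for Cd2, -2.90 for Lck, -2.45 for Klrd1 and -0.76 for Il7r. In Sh2d2a, Cd2, Lck and Klrd1 the p47phox-/- libraries overlapped those of WT, whereas in Il2rb and Il7r they lay above them. The groups hold 3 libraries each, so single libraries were not tested for lying apart.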

How the results depend on the processing

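The log2 fold changes recomputed were those of the called lymphoid and pathway genes (other than Lcp2, and Areg between the knockouts), of Il2rb in p47phox-/- against WT, and of Tcf7 and Klrd1 in gp91phox-/- against WT. None changed direction under the alternatives; the filter at 50 left out Sit1 and Il18r1, and other genes were not recomputed. The number of lymphoid genes called moved by more than 1.5 times in 2 instances: p47phox-/- against WT had 1 with DESeq2 in place of 0, and gp91phox-/- against p47phox-/- had 3 without p47phox-/- replicates 2 and 3 in place of 6. With 1 library left out at a time the counts were 0 to 0 in p47phox-/- against WT, 4 to 6 in gp91phox-/- against WT and 4 to 6 in gp91phox-/- against p47phox-/-. Cd2, Sh2d2a and Il2rb were called in both gp91phox-/- comparisons under all 20 alternatives, and Lck against WT under all 20. The call for Ctla4 was lost under 9 of 20 (adjusted p = 0.0538 to 0.147), that for Klrd1 under 7 and that for Il7r under 14; the cause was not tested. DESeq2 also called Klrd1 and Cd6 lower in gp91phox-/- than in WT.

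Replicate numbers did not pair the libraries: deviations of the 9 same-numbered pairs correlated at -0.04 to 0.08. With the number as a block, 0, 4 and 5 lymphoid genes were called in place of 0, 5 and 6, without Ctla4 and Il7r.

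Counts over all genes moved more. For p47phox-/- against WT the 162 calls became 52 without the trend, 678 with DESeq2, 101 with only these groups, 101, 105 and 47 without WT replicates 1, 2 and 3, 61 without p47phox-/- replicate 3, and 16 without p47phox-/- replicates 2 and 3; TMM scaling turned the split from 90 higher and 72 lower to 82 and 99. For gp91phox-/- against WT the 1016 calls became 596 without the trend, 1767 with DESeq2, 632, 628 and 647 without WT replicates 1, 2 and 3, 520 and 619 without gp91phox-/- replicates 2 and 3, and 1543 without p47phox-/- replicate 2. For gp91phox-/- against p47phox-/- the 1430 calls became 898 without the trend, 2280 with DESeq2, 948, 761 and 854 without gp91phox-/- replicates 1, 2 and 3, and 441 without p47phox-/- replicates 2 and 3. Genes at a few reads, such as the receptor chains, could show only large differences at this depth.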

Other observations

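The gut macrophage gene Timd4, whose protein marks long-lived macrophages that often carry CD4, was at 958, 784 and 860 in WT, 2447, 1786 and 2273 in p47phox-/- and 1904, 2611 and 2302 in gp91phox-/-. Both knockouts were higher than WT, by 1.31 ± 0.16 for p47phox-/- and 1.38 ± 0.16 for gp91phox-/- (log2, SE, limma adjusted p = 0.0039 and 0.000285), while Cd4 overlapped between all genotypes. Folr2, another gene of such macrophages, was higher in p47phox-/- (7450 to 9570) than in gp91phox-/- (3042 to 4151), and WT (3038 to 4248) overlapped gp91phox-/-.

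Fyn, a kinase related to Lck, was at 1660 to 2160 in WT, 1094 to 1283 in p47phox-/- and at 406, 2611 and 512 in gp91phox-/-, where replicate 2 was the high library as it was for Bcl11b, Lef1 and Tcf7. Of the 34 genes that stood out in that replicate, Aldoart2 did so most, at 438 against 0.91 in the next library. Many of the 34 carry names of predicted genes, microRNAs or pseudogenes, such as Gm9385, at 4083 against 56.5. Rps27rt was at 6785 against 119. Also among them were Tubb3, at 1152 against 42.2, and Tac1, at 99.6 against 2.94, both of which neurons use. Why these genes stood out was not tested.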
